A study of Mus musculus with 31 samples.

Results

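Heat shock proteins and their co-chaperones were examined in monocytes as 10 genes, taken by symbol from the 24411 entries of the gene count table: Hspa1a, Hspa1b, Hsph1, Dnajb1, Hsp90aa1, Dnaja1, Hspe1, Hspa8, Hsp90ab1 and Hsf1. All 10 were found once each and all 10 passed the filter on low counts that left 12337 genes to test. The study measured RNA in monocytes from C57BL/6J mice, gated as CD11b+, Ly6G-, Ly6C-high and MHC-II-, with 3 libraries from each of 3 sources. The first was blood of healthy mice (healthy blood), the second blood of mice carrying subcutaneous tumors of the Lewis lung carcinoma line LLC (LLC blood), and the third the LLC tumors themselves (LLC tumor). Another 22 samples of the series, made by ATAC-seq, CUT&Run and CUT&Tag, were not analysed here. The labels number the replicates without saying whether each came from its own animal or from pooled animals, so the p-values measure the spread between these samples. How the tumors were taken apart, and how long cells were kept before lysis, is not given in the sources used here.

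Chaperones of the HSP70 family bind unfolded stretches of other proteins and release them in a cycle that is driven by ATP, by J-domain proteins that deliver the client and by nucleotide exchange factors that reset the chaperone. HSP90 proteins act later, on clients such as kinases and receptors that are close to their folded state. Under heat, oxidants, arsenite or proteasome inhibition, heat shock factor 1 (HSF1) forms trimers that bind repeats of the unit nGAAn and switch on the inducible genes within minutes. The cognate forms are made all the time. In leukocytes, warming, enzymatic digestion and sorting are also known to raise the inducible genes, together with immediate early genes such as Jun and Fos.

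The upstream sequences of the inducible HSP70 pair are shown because both genes carry the same heat shock element letters and because reads are hard to divide between them. RefSeq sequence on GRCm38.p6 was held for 6 of the 10 genes (Hspa1a, Hspa1b, Hsph1, Dnajb1, Dnaja1 and Hspe1). Searches covered the 250 bases before each annotated start for GAANNTTC or TTCNNGAA, each its own reverse complement, so that 1 strand covers both. Capitals mark the matches in the stretches printed here, which read 5′ to 3′ in the direction of the gene. Hspa1a lies on the minus strand and its stretch is chr17:34972157-34972406. Hspa1b, also on the minus strand, has the stretch chr17:34959239-34959488.
Hspa1a: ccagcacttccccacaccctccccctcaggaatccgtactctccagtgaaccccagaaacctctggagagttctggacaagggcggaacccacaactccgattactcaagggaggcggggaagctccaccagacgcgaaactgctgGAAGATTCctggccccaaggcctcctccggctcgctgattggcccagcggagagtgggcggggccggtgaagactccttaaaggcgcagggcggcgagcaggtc
Hspa1b: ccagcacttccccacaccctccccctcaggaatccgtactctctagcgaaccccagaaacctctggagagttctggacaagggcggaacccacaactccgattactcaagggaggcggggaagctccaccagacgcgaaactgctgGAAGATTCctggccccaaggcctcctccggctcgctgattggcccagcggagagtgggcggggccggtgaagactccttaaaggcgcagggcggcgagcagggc
The stretches were identical at 247 of 250 bases. Counted from 1 at the first base printed, with the Hspa1a base first, the differences were C44T, T47C and T249G. GAAGATTC stood 104 to 97 bases before the start in both.

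Matches in 3 further genes are shown as 30-base windows, because they hold the other matches found and Hspe1 holds a run of them. The Hsph1 window is chr5:149636351-149636380 on the minus strand, the Dnaja1 window chr4:40722333-40722362 on the plus strand, and the Hspe1 window chr1:55088053-55088082 on the plus strand.
Hsph1: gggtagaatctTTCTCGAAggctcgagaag
Dnaja1: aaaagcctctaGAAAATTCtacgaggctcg
Hspe1: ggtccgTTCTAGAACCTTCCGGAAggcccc
Hspe1 held 3 overlapping matches, and with them 2 matches in which the same letters run on by a further unit, NNGAA or NNTTC. Its window lies inside the annotated span of the neighbouring gene Hspd1. Dnajb1 held no match in the stretch before either of its annotated starts. The Dnaja1 match stood before annotated start 1 of that gene, and starts 2 and 3 had none. Of 32851 annotated starts in the same table, 12.8% held the shorter letters and 0.466% the longer ones. Counted by gene, with a match before any start, the shares were 14.5% and 0.514% of 27025 genes. A match describes letters only.

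Library totals ran from 10457492 to 20706412 estimated counts, and the smallest count behind any value of the 10 genes was 210. Levels are given as CPM, the count scaled to the library total. They are compared between libraries and not between genes, since transcript lengths were not used. CPM values leave out the TMM scaling factors used in the fits, which were lowest in LLC tumor library 1 (0.798). Orders and overlaps read in CPM can therefore differ from the fitted values. All 8 monocyte markers (among them Lyz2, Ccr2 and Ly6c2) were counted in every library. Their summed level was 32959 to 36940 CPM in healthy blood, 23551 to 26983 CPM in LLC blood and 13375 to 17315 CPM in LLC tumor. Being bulk samples, the libraries cannot tell fewer cells of a type from less RNA per cell. LLC blood library 1 stood apart from the other two LLC blood libraries in collagen RNA: the 7 fibroblast markers summed to 414 CPM there, against 3.67 and 4.59 CPM. For this reason, and because of its HSP70 level below, results that rest on it are given with and without it. The HSP70 level was part of that choice. Adjusted p-values and calls without this library are therefore descriptions and not tests for the HSP70 pair and for genes that vary with it.

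The inducible HSP70 genes divided the libraries in a way the 3 groups did not. Hspa1a (ENSMUSG00000091971, chr17:34969359-34972156) and Hspa1b (ENSMUSG00000090877, chr17:34956429-34959238) encode nearly identical cytosolic HSP70 proteins that most unstressed cells make little of. Hspa1a was at 981, 515 and 418 CPM in healthy blood libraries 1, 2 and 3, at 419, 17.4 and 10.9 CPM in LLC blood, and at 1920.1, 731 and 987 CPM in LLC tumor. Hspa1b was at 1211, 657 and 574 CPM in healthy blood, at 495, 27.4 and 22.3 CPM in LLC blood, and at 1748, 665 and 919 CPM in LLC tumor. LLC blood library 1 was thus near the level of healthy blood while libraries 2 and 3 were low, a span of 38.6-fold for Hspa1a and 22.2-fold for Hspa1b within 1 group. The span within healthy blood was 2.35-fold for Hspa1a, and within LLC tumor it was 2.63-fold. Library 1 was the highest of its group for both genes in all 3 groups.

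Estimated counts of Hspa1a were not whole numbers in 9 of 9 libraries and those of Hspa1b in 8 of 9, which is how reads shared between similar transcripts appear. The same held for Dnaja1 and Hsp90ab1 in 9 of 9 libraries, and for Hspa8 and Hsp90aa1 in 1 each. The sum of the HSP70 pair avoids the division between its members. It was 2192, 1172 and 992 CPM in healthy blood, 914, 44.8 and 33.1 CPM in LLC blood, and 3668, 1396 and 1905 CPM in LLC tumor. Hspa1a made up 42.1% to 44.7% of the sum in healthy blood, 32.8% to 45.9% in LLC blood and 51.8% to 52.4% in LLC tumor, so the share assigned to Hspa1a was higher in every tumor library than in any blood library. Whether this reflects the genes or the assignment of shared reads was not tested.

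**Figure D1:**
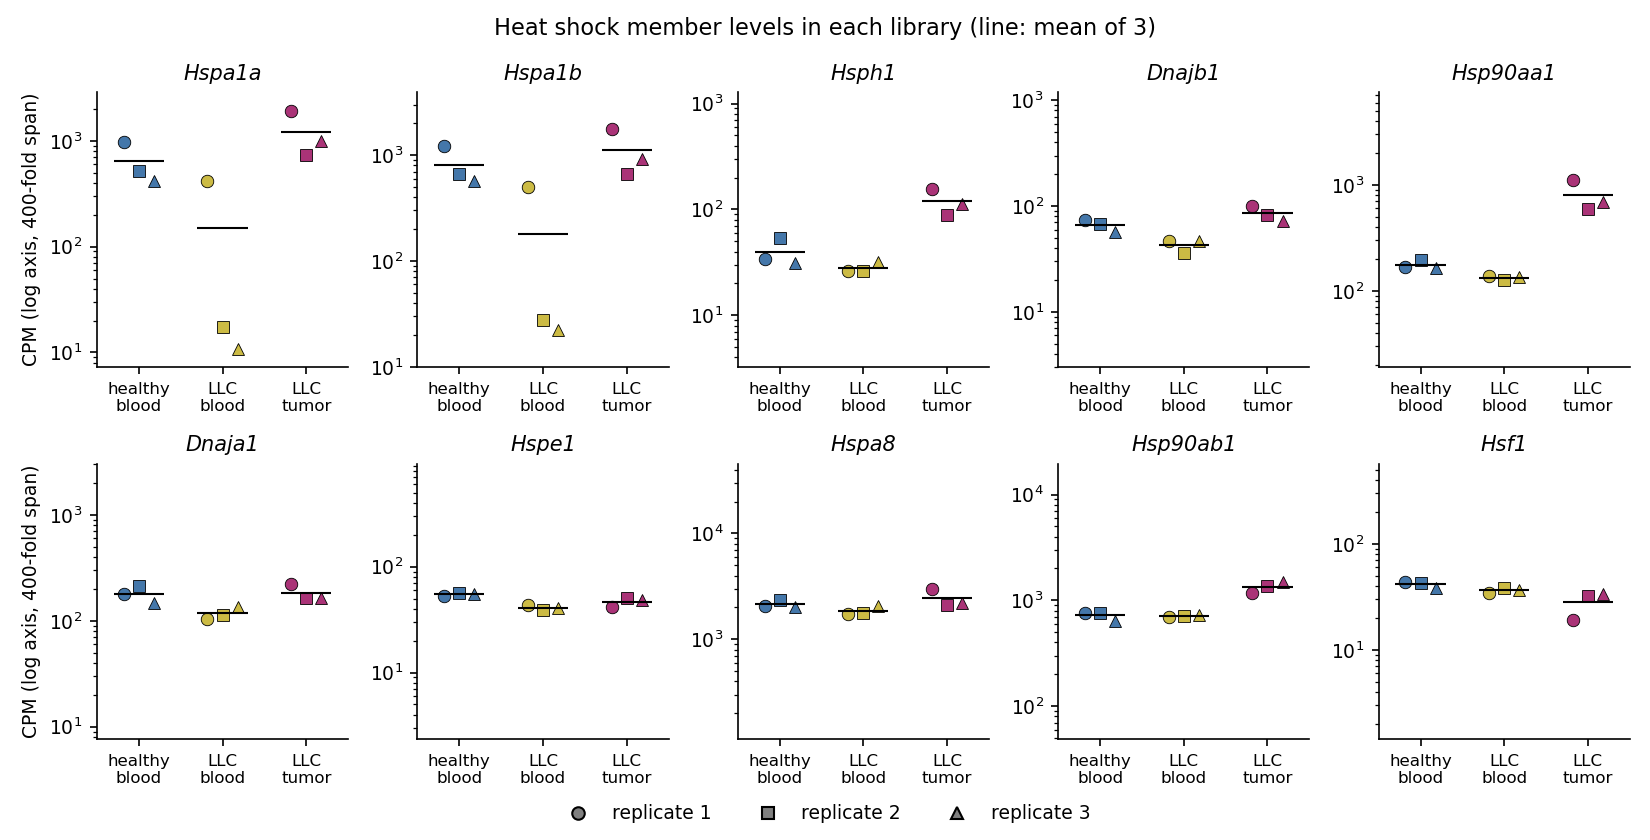
Level of each of the 10 genes in each library, in CPM on a logarithmic axis of the same span in every panel, by group (healthy blood, LLC blood, LLC tumor). Points are single libraries, with the replicate number as shape, and lines are means of 3; Hspa1a and Hspa1b separate LLC blood library 1 (419 and 495 CPM) from libraries 2 and 3 (10.9 to 27.4 CPM), while the other 8 genes lie close together within LLC blood.

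Between LLC blood and healthy blood, the fitted log2 fold change of Hspa1a was -2.13 ± 1.17 (SE) and that of Hspa1b -2.20 ± 1.07, and neither passed the test (edgeR quasi-likelihood, Benjamini-Hochberg adjusted p = 0.222 and 0.171). For the sum it was -2.16 ± 1.12 (edgeR adjusted p = 0.195). Without LLC blood library 1, the sum was lower in LLC blood by a log2 fold change of -5.24 ± 0.66 (edgeR adjusted p = 0.00134), with -5.52 for Hspa1a and -5.05 for Hspa1b. Leaving out that 1 library therefore moved the fitted value by over 3 log2 units and brought the call. The library was left out in part for its HSP70 level, so this call is not a test. Limma-voom with sample quality weights, which gives less weight to libraries that vary more, also called the sum (-4.51, adjusted p = 0.00052), Hspa1a (adjusted p = 0.000216) and Hspa1b (adjusted p = 0.000279).

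Between LLC tumor and LLC blood, Hspa1a rose by 3.30 ± 1.23 on the log2 scale and Hspa1b by 2.89 ± 1.10 (edgeR adjusted p = 0.0406 and 0.0443), and every tumor library was above every LLC blood library. The sum rose by 3.08 ± 1.16 (edgeR adjusted p = 0.0424). Without LLC blood library 1 the rise of the sum was 6.15 ± 0.69 (edgeR adjusted p = 0.000141), which for the same reason is a description. The calls of Hspa1a and Hspa1b were lost in 8 and 9 of 17 other settings. That of the sum was lost in 8 of 13, with adjusted p from 0.0555 to 0.0931 in edgeR: when any 1 healthy blood library, LLC blood library 2 or 3, or LLC tumor library 1 or 3 was left out, and when only the 6 libraries compared were fitted. Against healthy blood the tumor value of the sum was 0.92 ± 1.08 on the log2 scale and did not pass (edgeR adjusted p = 0.473). Healthy blood library 1, at 2192 CPM, lay above tumor libraries 2 and 3.

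Hsp90aa1, Hsph1 and Dnajb1, which are heat-inducible from a basal level, behaved differently from the HSP70 pair in LLC blood: their 3 libraries lay close together. Hsp90aa1 (ENSMUSG00000021270, chr12:110691036-110696395) encodes the stress-inducible HSP90 alpha. It was at 167, 196 and 163 CPM in healthy blood, at 139, 127 and 134 CPM in LLC blood, and at 1122, 591 and 689 CPM in LLC tumor. No tumor library overlapped a blood library. Hsp90aa1 rose by 2.84 ± 0.29 on the log2 scale from LLC blood to LLC tumor, a 7.15-fold change (edgeR adjusted p = 2.95e-05), and was higher by 2.41 ± 0.29 in LLC tumor than in healthy blood, a 5.33-fold difference (edgeR adjusted p = 6.33e-05). The 2 blood groups did not overlap either, but their difference of -0.42 ± 0.27 did not pass (edgeR adjusted p = 0.295). It passed when LLC tumor library 1 was left out (-0.47, edgeR adjusted p = 0.00431), when only the 6 libraries compared were fitted (edgeR adjusted p = 0.00314) and with limma-voom (adjusted p = 0.00682).

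Hsph1 (ENSMUSG00000029657, chr5:149616843-149636498) encodes HSP110, a nucleotide exchange factor of HSP70. Its levels were 33.9, 53.7 and 31.0 CPM in healthy blood, 26.4, 26.5 and 31.6 CPM in LLC blood, and 157, 89.0 and 112 CPM in LLC tumor. The tumor libraries stood above all 6 blood libraries, whereas the blood groups overlapped. Hsph1 rose by 2.32 ± 0.30 on the log2 scale from LLC blood to LLC tumor (edgeR adjusted p = 0.000144) and was higher by 1.80 ± 0.30 in LLC tumor than in healthy blood (edgeR adjusted p = 0.000525). Between the blood groups the value was -0.51 ± 0.30 (edgeR adjusted p = 0.247).

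Dnajb1 (ENSMUSG00000005483, chr8:83608175-83612653) encodes the HSP40 protein that feeds clients to HSP70. It was at 74.4, 68.1 and 56.8 CPM in healthy blood, at 47.0, 35.7 and 46.5 CPM in LLC blood, and at 100.2, 83.1 and 72.2 CPM in LLC tumor. In CPM, LLC blood was the lowest group without overlap, and tumor library 3 was just below healthy blood library 1, an order that the TMM factors of the fits reversed. From LLC blood to LLC tumor Dnajb1 rose by 1.21 ± 0.20 on the log2 scale (edgeR adjusted p = 0.000673). In LLC blood it was lower than in healthy blood by a log2 fold change of -0.65 ± 0.20 (edgeR adjusted p = 0.0448), a call that was lost when any 1 of the 6 blood libraries was left out (edgeR adjusted p = 0.0627 to 0.154, with 0.07 without LLC blood library 1). Its tumor level exceeded that of healthy blood by 0.56 ± 0.20 (edgeR adjusted p = 0.0332). That call was lost without healthy blood library 2 or 3 (edgeR adjusted p = 0.0855 and 0.123) and without LLC tumor library 1 (0.27, edgeR adjusted p = 0.134), as well as with library totals alone (0.36, edgeR adjusted p = 0.0636), upper-quartile factors (0.44, edgeR adjusted p = 0.0506) and limma-voom (0.30, adjusted p = 0.0713).

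Dnaja1 and Hspe1 are made in unstressed cells and are known to rise moderately under heat. Dnaja1 (ENSMUSG00000028410, chr4:40722468-40734965) encodes another HSP40 partner of HSP70. It was at 178, 213 and 146 CPM in healthy blood, at 104, 112 and 136 CPM in LLC blood, and at 222, 163 and 165 CPM in LLC tumor. LLC blood was again the lowest group without overlap, and the tumor and healthy blood ranges overlapped. Dnaja1 rose by 0.87 ± 0.22 on the log2 scale from LLC blood to LLC tumor (edgeR adjusted p = 0.00697). The blood difference of -0.63 ± 0.22 did not pass (edgeR adjusted p = 0.0663), although it did in 6 of 17 other settings: without LLC tumor library 1 (-0.68, edgeR adjusted p = 0.00462), with DESeq2, library totals alone, upper-quartile factors, only the 6 libraries compared, and limma-voom (adjusted p from 0.00396 to 0.0308). Tumor against healthy blood gave 0.24 ± 0.22 (edgeR adjusted p = 0.358).

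Hspe1 (ENSMUSG00000073676, chr1:55088148-55091317) encodes HSP10, the lid of the mitochondrial HSP60 chaperonin. Its levels were 53.2, 57.0 and 55.1 CPM in healthy blood, 43.0, 38.7 and 40.3 CPM in LLC blood, and 41.5, 50.3 and 48.1 CPM in LLC tumor. In CPM, both LLC groups were below healthy blood without overlap, and tumor library 1 lay within the LLC blood range. With the TMM factors of the fits (0.798 for tumor library 1), the tumor and healthy blood ranges overlapped and tumor library 1 was above the LLC blood range. Against healthy blood, Hspe1 was lower in LLC blood by a log2 fold change of -0.47 ± 0.07 (edgeR adjusted p = 0.00245), and this call held in all 17 alternative settings run. It was higher in LLC tumor than in LLC blood by 0.39 ± 0.07 (edgeR adjusted p = 0.00131), a call that was lost when libraries were scaled by their totals alone (0.20, edgeR adjusted p = 0.0889). Against healthy blood the tumor value was -0.07 ± 0.07 (edgeR adjusted p = 0.408), and -0.24 with library totals alone (edgeR adjusted p = 0.0433).

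The cognate chaperones Hspa8 and Hsp90ab1 gave 2 different patterns. Hspa8 (ENSMUSG00000015656, chr9:40801276-40805202) encodes HSC70, the constitutive HSP70 of the cytosol. It was at 2066, 2367 and 2011 CPM in healthy blood, at 1735, 1765 and 2063 CPM in LLC blood, and at 3001, 2114 and 2227 CPM in LLC tumor. The blood groups overlapped, and tumor library 1 was the highest library. Hspa8 was higher in LLC tumor than in LLC blood by 0.63 ± 0.21 on the log2 scale (edgeR adjusted p = 0.0256), a call that was lost without LLC blood library 1 (0.57, edgeR adjusted p = 0.0817) or library 2 (0.55, edgeR adjusted p = 0.0895). The other comparisons gave -0.24 ± 0.21 between the blood groups (edgeR adjusted p = 0.449) and 0.39 ± 0.21 between tumor and healthy blood (edgeR adjusted p = 0.124). The first passed without LLC tumor library 1 (-0.29, edgeR adjusted p = 0.0293) and with only the 6 libraries compared (edgeR adjusted p = 0.0433), and the second without LLC tumor library 2 (0.55, edgeR adjusted p = 0.0387).

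Hsp90ab1 (ENSMUSG00000023944, chr17:45567778-45573261) encodes HSP90 beta, the constitutive counterpart of HSP90 alpha. It was at 766, 762 and 643 CPM in healthy blood, at 691, 709 and 728 CPM in LLC blood, and at 1173, 1381 and 1485 CPM in LLC tumor. Tumor libraries were above all blood libraries, and the blood groups overlapped. Hsp90ab1 rose by 1.12 ± 0.10 on the log2 scale from LLC blood to LLC tumor (edgeR adjusted p = 1.38e-05) and was higher by 1.06 ± 0.10 in LLC tumor than in healthy blood (edgeR adjusted p = 1.59e-05). The blood groups differed by -0.06 ± 0.10 (edgeR adjusted p = 0.733). In CPM, Hsp90ab1 was lowest in tumor library 1 among the 3 tumor libraries, unlike the inducible genes. This order depended on the scaling. With the TMM factors of the fits (0.798, 0.9996 and 0.968 for tumor libraries 1, 2 and 3), library 2 was the lowest.

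Hsf1 (ENSMUSG00000022556, chr15:76477362-76501155), the transcription factor that activates the inducible genes, is itself controlled mainly after transcription, by trimer formation and phosphorylation. It was at 43.2, 42.9 and 38.7 CPM in healthy blood, at 34.3, 38.5 and 37.0 CPM in LLC blood, and at 19.0, 32.1 and 34.0 CPM in LLC tumor. In CPM all tumor libraries were below all blood libraries, and tumor library 1, with the highest HSP70 level, had the lowest Hsf1 level. With the TMM factors of the fits (0.968 for tumor library 3 and 1.05 for LLC blood library 1), tumor library 3 was no longer below LLC blood library 1. Hsf1 was lower in LLC tumor than in healthy blood by a log2 fold change of -0.40 ± 0.13 (edgeR adjusted p = 0.0226), a call that was lost without healthy blood library 1 (edgeR adjusted p = 0.0554) and when only the 6 libraries compared were fitted (edgeR adjusted p = 0.0592). It did not pass between tumor and LLC blood (-0.19 ± 0.13, edgeR adjusted p = 0.234) or between the blood groups (-0.21 ± 0.13, edgeR adjusted p = 0.276). The last of these passed without LLC tumor library 1 (-0.26, edgeR adjusted p = 0.0185), with only the 6 libraries compared (edgeR adjusted p = 0.0376) and with limma-voom (adjusted p = 0.0497).

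Counted over the 10 genes, the step from LLC blood to LLC tumor moved most of them in 1 direction. There 9 were called higher, 0 lower and 1 (Hsf1) was not called, in a comparison in which 61.3% of all genes tested were called, 29.6% higher and 31.7% lower. The median log2 fold change was 1.16, against -0.03 over all genes tested. Without LLC blood library 1, 8 were called higher and 0 lower. In CPM, the tumor libraries were all above the LLC blood libraries in 8 genes (23.5% of all genes tested), and all below in 1, Hsf1 (44.8%). With the TMM factors of the fits Hsf1 overlapped and Hspe1 did not, and the shares were not computed with them.

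For LLC blood against healthy blood, 0 of the 10 genes were called higher and 2 (Dnajb1 and Hspe1) lower, with a median of -0.49 against -0.01 over all genes. Of all genes tested 23.6% were called, 14.0% higher and 9.61% lower. The fitted value was below 0 in all 10 genes. In CPM, the LLC blood libraries were all below the healthy blood libraries in 6 genes (23.8% of all genes tested) and all above in 0 (27.5%). Without LLC blood library 1, 3 genes were called lower, Hspa1a, Hspa1b and Hspe1, though that library was left out in part for its level of the first 2. Without LLC tumor library 1, 6 were called lower, and calls lower over all genes tested rose from 1185 of 12337 to 2883 of 12864.

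For LLC tumor against healthy blood, 4 genes were called higher (Hsp90aa1, Hsph1, Dnajb1 and Hsp90ab1) and 1 lower (Hsf1), with a median of 0.62 against -0.00 over all genes. Without LLC tumor library 1 the median was 0.17 and 3 were called higher, and with limma-voom the median was 0.32. Of all genes tested 66.5% were called in this comparison, 33.5% higher and 33.0% lower. In CPM, the libraries did not overlap in 5 genes: 3 were all higher in tumor (26.9% of all genes tested) and 2, Hspe1 and Hsf1, all lower (43.7%). With the TMM factors of the fits the Hspe1 libraries overlapped and those of Dnajb1 did not. The 3 comparisons share libraries, so their values stand side by side and are not independent of each other.

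**Figure D2:**
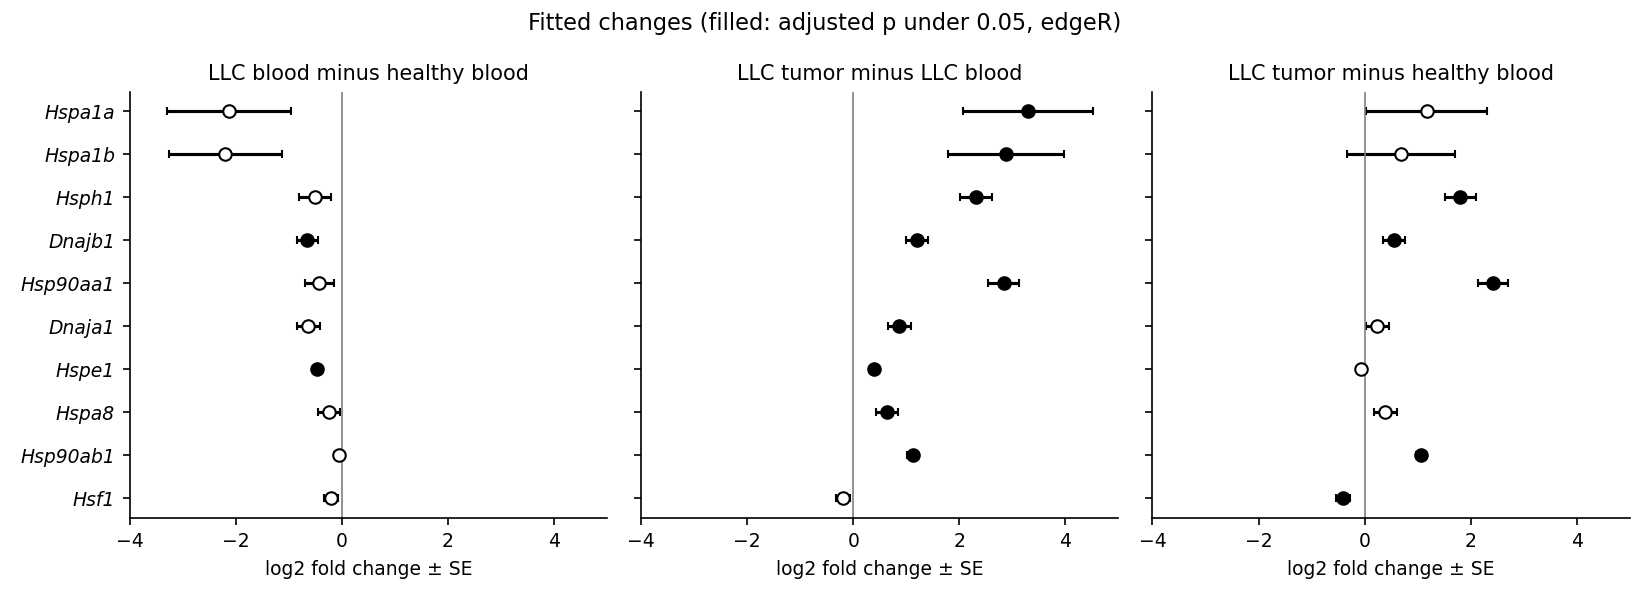
Fitted log2 fold change of each gene in the 3 comparisons, with bars of 1 standard error on either side of the point and filled points for an edgeR adjusted p under 0.05. In LLC tumor against LLC blood 9 of 10 points are filled to the right of 0; the bars of Hspa1a (1.23) and Hspa1b (1.10) are wider than that of Hsp90aa1 (0.29).

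Inducible and constitutive members were then compared within each library, as the mean log2 CPM of Hspa1a plus Hspa1b, Hsph1, Dnajb1 and Hsp90aa1 minus that of Hspa8 and Hsp90ab1. The size of this difference depends on transcript lengths, and so only its shift between libraries is read. It was -2.85, -2.98 and -3.13 in healthy blood, -3.29, -4.54 and -4.60 in LLC blood, while LLC tumor gave -1.90, -2.61 and -2.50. The 3 groups did not overlap, with LLC blood library 1 nearer to healthy blood than to the other LLC blood libraries. Without the HSP70 pair the values were -4.07, -3.91 and -4.11 in healthy blood, -4.30, -4.50 and -4.40 in LLC blood, while LLC tumor gave -2.85, -3.39 and -3.36. LLC blood library 1 then lay close to libraries 2 and 3, so its distance from them came from the HSP70 pair.

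Within the cytosolic families the same contrast can be read as a ratio of CPM values. The ratio of Hsp90aa1 to Hsp90ab1 was 0.218, 0.257 and 0.253 in healthy blood, 0.201, 0.179 and 0.184 in LLC blood, while LLC tumor gave 0.957, 0.428 and 0.464. The ratio was higher in every tumor library than in any blood library, although Hsp90ab1 itself was also higher there. The ratio of the Hspa1a and Hspa1b sum to Hspa8 was 1.06, 0.495 and 0.493 in healthy blood, 0.527, 0.0254 and 0.0161 in LLC blood, while LLC tumor gave 1.22, 0.660 and 0.856. Here LLC blood library 1 lay within the healthy blood range and healthy blood library 1 within the tumor range. These values are descriptions with no test, since the genes were chosen with results of these data known.

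**Figure D3:**
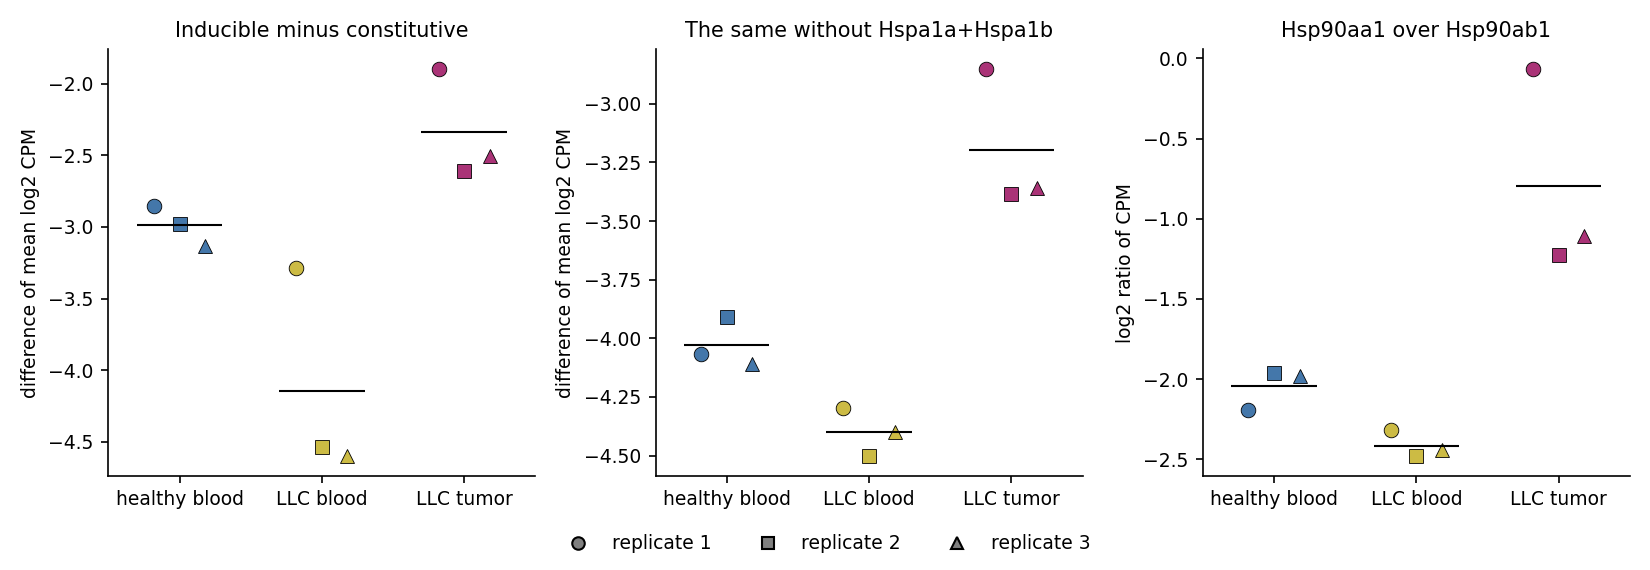
Inducible against constitutive members in each library, as differences of mean log2 CPM with the HSP70 pair (left) and without it (middle), and as the log2 ratio of Hsp90aa1 to Hsp90ab1 (right); points are libraries and lines are means of 3. LLC blood library 1 is apart from libraries 2 and 3 on the left (-3.29 against -4.54 and -4.60) and close to them in the middle (-4.30 against -4.50 and -4.40).

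Genes that cell handling is known to raise were set beside the chaperones, as a list of 30 immediate early and stress genes without any chaperone. Their summed level was 8472, 6916 and 6887 CPM in healthy blood, 6380, 4079 and 3875 CPM in LLC blood, and 21707, 19282 and 17970 CPM in LLC tumor. LLC blood library 1 was again nearer to healthy blood, and all tumor libraries were far above. Library 1 had the highest sum in each group. From LLC blood to LLC tumor 28 of the 30 rose, 1 fell and 1 was not called, with a median log2 fold change of 2.28 (29 and 1 without LLC blood library 1). Maff, a small transcription factor, rose by 6.16 ± 0.47 on the log2 scale (edgeR adjusted p = 4.7e-06), the stress gene Ier3 by 5.84 ± 0.15 (5.1e-08) and the early growth response factor Egr2 by 5.78 ± 0.46 (6.43e-06). Against healthy blood 22 were higher in tumor and 1 lower, with a median of 1.74. Of all genes tested, 29.6% were called higher and 31.7% lower in the first of these comparisons, and 33.5% and 33.0% in the second.

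In LLC blood against healthy blood, 2 of the 30 were called higher and 9 lower, with a median of -0.73. Of all genes tested, 14.0% were called higher there and 9.61% lower. Without LLC blood library 1, 2 were called higher and 16 lower, and without LLC tumor library 1, 2 and 17. Over all genes tested these fits called 1677 higher and 948 lower, and 2181 and 2883. LLC blood library 1 was left out in part for its HSP70 level. The list holds Jun, Egr1 and Dusp1, which are among the genes most like the HSP70 sum (below). The count without LLC blood library 1 is therefore a description and not a test. Rhob, a small GTPase, was lower by a log2 fold change of -1.21 ± 0.24 (edgeR adjusted p = 0.00619) and the phosphatase gene Dusp2 by -1.53 ± 0.42 (edgeR adjusted p = 0.0285), a call lost in 5 of 17 other settings. Socs3, an inhibitor of cytokine signalling, went the other way, by 1.26 ± 0.16 (edgeR adjusted p = 0.000779). Handling and the tumor as a source cannot be told apart in the tumor libraries, and the part of handling in the chaperone levels was not tested.

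The genes most like the HSP70 pair across the 9 libraries were found by the root mean square difference of log2(CPM + 1), centred on each gene's mean, among the 6902 genes that averaged 20 CPM or more. The HSP70 sum itself varied by 2.28 on this scale. Jun, a subunit of the AP-1 transcription factor, was nearest, at 0.63. It was at 593, 414 and 412 CPM in healthy blood, at 378, 15.1 and 10.0 CPM in LLC blood, and at 1443, 1566 and 1582 CPM in LLC tumor. As with the HSP70 pair, LLC blood library 1 had a level near healthy blood while libraries 2 and 3 were low. Jun was picked for its likeness over these same 9 libraries, so this shared pattern follows from the choice and is no test. The next 4 were the chemokine gene Cxcl10 (1.23), the stress phosphatase subunit gene Ppp1r15a (1.24), the early growth response gene Egr1 (1.26) and the phosphatase gene Dusp1 (1.32). Jun, Egr1 and Dusp1 are on the list of 30.

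**Figure D4:**
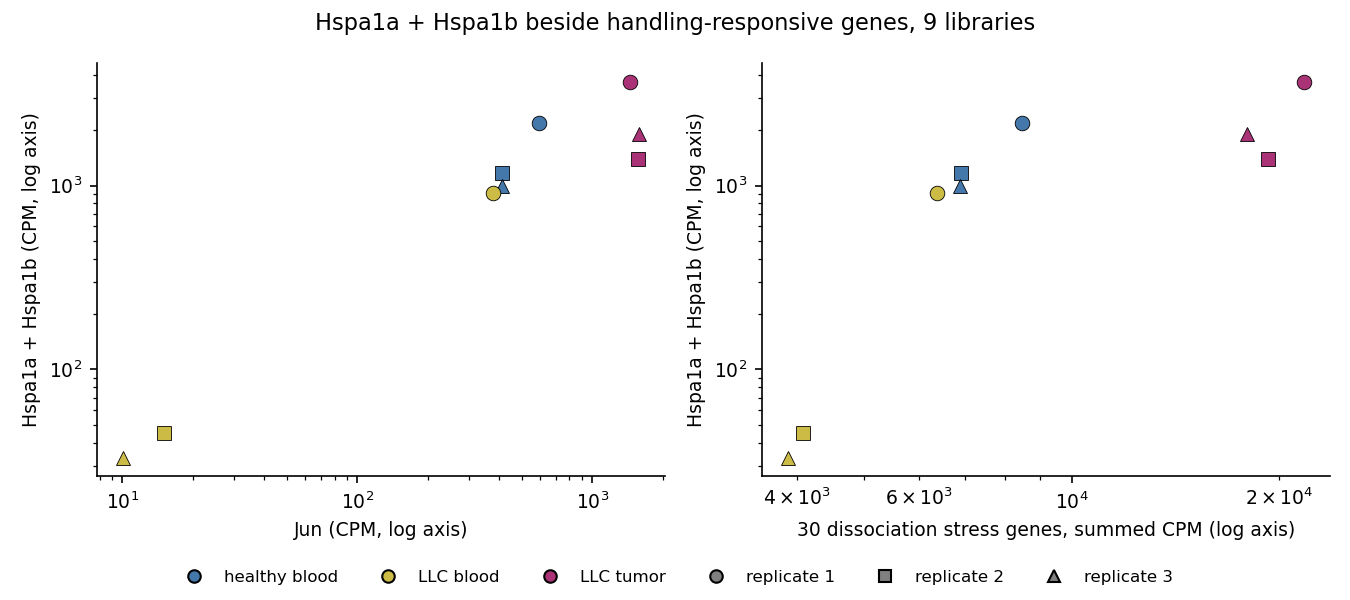
Sum of Hspa1a and Hspa1b against Jun (left) and against the summed level of the 30 handling genes (right) in each library, all in CPM on logarithmic axes; colour is the group and shape the replicate number. LLC blood libraries 2 and 3 are at the lower left (44.8 and 33.1 CPM for the HSP70 sum), LLC blood library 1 (914 CPM) is just below the healthy blood libraries, and the tumor libraries are furthest to the right. Jun was picked for its likeness to the HSP70 sum over these libraries.

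Markers of other cell types moved with some of these differences, and their part in the chaperone levels was not tested. The 7 fibroblast markers were all counted in every tumor library, where they summed to 938 to 3929 CPM, against 6.02 to 16.9 CPM in healthy blood. In LLC blood library 1 the collagen gene Col1a1 was at 212 CPM, above its 13.5 to 129 CPM in the tumor libraries, whereas it was at 0.0692 CPM in library 2 and at 0 in library 3. Col1a2 was also above its tumor range in LLC blood library 1 (131 against 7.13 to 103 CPM), and Pdgfrb lay within its own. Col3a1 (57.2 against 713 to 3099 CPM), Dcn, Lum and Pdgfra were below theirs. Col3a1 made up 79.3% of the tumor sum. Tumor library 1, with the highest HSP70 sum, had the lowest fibroblast sum of the tumor libraries. The 7 markers of LLC and other epithelial cells summed to 63.4 to 102 CPM in tumor, 3.94 to 6.27 CPM in LLC blood and 8.15 to 9.79 CPM in healthy blood. In tumor Cdh1 made up 62.2% of that sum and Cldn4 was at 0 in every tumor library. Krt8 and Krt18 were also higher in every tumor library than in any blood library. Krt7 was lower in tumor (0.271 to 0.864 CPM) than in healthy blood (6.51 to 7.79 CPM) and LLC blood (1.66 to 3.54 CPM). Epcam and Krt19 were at most 0.259 CPM in any library.

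Lymphoid and erythroid markers went in the opposite direction. The 8 T cell markers summed to 39.0 to 194 CPM in healthy blood, 3.67 to 6.60 CPM in LLC blood and 1.35 to 2.48 CPM in tumor. The 8 NK cell markers gave 197 to 491 CPM, 27.3 to 51.1 CPM and 2.07 to 5.14 CPM, and the 7 B cell markers 17.6 to 192 CPM, 10.5 to 13.8 CPM and 1.72 to 1.95 CPM, in the same order. Pax5 and Blk were at 0 in every LLC blood library, and Cd79a, Ms4a1, Blk and Fcmr in every tumor library. The 7 erythroid markers summed to 222 to 650 CPM in healthy blood, 168 to 920 CPM in LLC blood and 1.26 to 3.46 CPM in tumor. Neutrophil markers (10 in the table) summed to 177 to 359 CPM, 302 to 767 CPM and 170 to 392 CPM. Mmp8 made up 72.8%, 51.0% and 55.0% of the group sums. S100a8 varied more between libraries than Mmp8: it was at 2.93, 61.2 and 4.66 CPM in healthy blood, 49.9, 217 and 168 CPM in LLC blood, and 23.2, 112 and 74.9 CPM in tumor. The 6 platelet markers gave 7.67 to 19.7 CPM, 3.44 to 6.69 CPM and 139 to 222 CPM, with Pf4 at 52.4% of the tumor sum. The tumor sum lay almost wholly in 2 chemokine genes, Pf4 (70.5 to 119 CPM) and Ppbp (66.0 to 110 CPM). Itga2b and Gp9 were lower in tumor than in healthy blood, and Gp1bb and Gp6 were at most 0.725 CPM in any library. The 7 endothelial markers gave 16.7 to 24.2 CPM, 17.6 to 20.5 CPM and 55.8 to 72.2 CPM. Pecam1 made up 74.0% of the tumor sum, and Kdr and Cdh5 were also higher in every tumor library than in any blood library. Vwf was lower in tumor (2.53 to 4.52 CPM) than in LLC blood (6.33 to 6.64 CPM). Cldn5, Esam and Tek were at most 0.864 CPM in any library.

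The rest of the chaperone system was read from 7 further lists. Of all genes tested, 29.6% were called higher and 31.7% lower in tumor against LLC blood, and 33.5% and 33.0% against healthy blood. The blood comparison gave 14.0% and 9.61%. Blood counts over all genes also moved with the fit. They were 1732 higher and 1185 lower in the main fit, 2181 and 2883 without LLC tumor library 1, and 3003 and 2881 with limma-voom. Of 18 other heat-inducible targets of HSF1, 10 rose and 1 fell from LLC blood to LLC tumor, with a median log2 fold change of 0.64. Zfand2a, a zinc finger gene known for its strong response to arsenite and heat, was at 12.9, 13.4 and 12.8 CPM in healthy blood, at 16.3, 14.8 and 15.5 CPM in LLC blood, and at 244, 145 and 162 CPM in tumor. It rose by 3.81 ± 0.26 on the log2 scale (edgeR adjusted p = 2.74e-06). LLC blood library 1 did not stand apart in Zfand2a, in contrast to the HSP70 pair.

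Serpinh1, the collagen chaperone HSP47, had the largest called change among the genes of that list that averaged 20 CPM or more, 7.09 ± 0.90 (edgeR adjusted p = 0.000115). It was at 36.3, 142 and 148 CPM in tumor and at 3.16, 0.138 and 0.0966 CPM in LLC blood, where library 1, with its collagen RNA, was the highest. In LLC blood against healthy blood 1 of the 18 was higher (Hspa4l, an HSP110 relative, 0.51 ± 0.15, edgeR adjusted p = 0.0389) and 0 were lower, and it was 1 higher and 2 lower without LLC blood library 1, 1 and 3 without LLC tumor library 1, and 1 and 5 with limma-voom. The Hspa4l call was lost in 8 of 17 other settings (adjusted p up to 0.139). In tumor against healthy blood 9 were higher and 3 lower, with a median of 0.49. Dnajb4, a J-domain gene, was among the higher ones (1.64 ± 0.27, edgeR adjusted p = 0.000467).

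Chaperones of the endoplasmic reticulum rose in the tumor in most genes of their list. Of 15, 10 rose and 2 fell from LLC blood to LLC tumor with a median of 0.66, and 12 were higher and 1 lower than in healthy blood with a median of 0.82. Hspa5, the HSP70 of this compartment (BiP), rose by 1.81 ± 0.21 on the log2 scale (edgeR adjusted p = 6.11e-05), and the disulfide isomerase genes Pdia4 and P4hb by 1.48 ± 0.12 and 1.25 ± 0.13 (edgeR adjusted p = 7.57e-06 and 3.82e-05). Hspa5 was at 486, 544 and 538 CPM in LLC blood, so library 1 did not stand apart there. Between the blood groups edgeR called 0 of the 15, with 3 at an unadjusted p under 0.05, while DESeq2 called 2 and limma-voom 4.

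Mitochondrial partners of Hspe1 were called at about the share of all genes. Of 10, 4 rose and 2 fell from LLC blood to LLC tumor with a median of 0.09, where 29.6% of all genes tested were higher and 31.7% lower. Those that rose included Hspd1, the HSP60 that Hspe1 caps, by 1.01 ± 0.08 on the log2 scale (edgeR adjusted p = 8.21e-06), and Hspa9, the mitochondrial HSP70, by 1.12 ± 0.08 (edgeR adjusted p = 2.8e-06). Hspd1 was at 81.8, 90.8 and 90.7 CPM in LLC blood and at 120, 173 and 172 CPM in tumor. The protease gene Lonp1 rose by 0.82 ± 0.06 (edgeR adjusted p = 5.6e-06) and was the 1 gene of the list called between the blood groups (0.25 ± 0.06, edgeR adjusted p = 0.0219). Lonp1 did not pass in 8 of 17 other settings (adjusted p up to 0.153), and the blood count was 3 without LLC tumor library 1 and 4 with limma-voom. Against healthy blood 4 were higher in tumor and 2 lower.

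The remaining lists were divided in direction, as were all genes tested (29.6% higher and 31.7% lower from LLC blood to tumor). Of 14 cytosolic chaperonin and prefoldin genes, 5 rose and 0 fell from LLC blood to tumor, led by the chaperonin subunits Tcp1 (0.77 ± 0.07, edgeR adjusted p = 1.31e-05) and Cct3 (0.72 ± 0.08, edgeR adjusted p = 5.09e-05). Against healthy blood 4 were higher and 4 lower, and in LLC blood 3 prefoldin genes were lower, Pfdn5 by -0.56 ± 0.18, Vbp1 by -0.39 ± 0.12 and Pfdn2 by -0.36 ± 0.08 (edgeR adjusted p = 0.0463, 0.0402 and 0.0121). That count was 1 without LLC blood library 1, 6 without LLC tumor library 1 and 5 with DESeq2, and the calls of Pfdn5 and Vbp1 were each lost in 7 of 17 other settings and that of Pfdn2 in 2. Of 17 other HSP90 family and co-chaperone genes, 6 rose and 5 fell from LLC blood to tumor, 5 were higher and 6 lower in tumor than in healthy blood, and 1 was higher and 4 lower in LLC blood (2 and 7 without LLC tumor library 1). Unc45a, a myosin chaperone, rose by 1.04 ± 0.09 in tumor against LLC blood (edgeR adjusted p = 8.16e-06), while Ptges3, the HSP90 co-chaperone p23, was lower in LLC blood by -0.42 ± 0.08 (edgeR adjusted p = 0.00495).

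Of 29 other HSP70, exchange factor and J-domain genes, 28 were tested. From LLC blood to tumor 10 rose and 5 fell, against healthy blood 11 were higher and 6 lower, and in LLC blood 3 were higher and 0 lower than in healthy blood. The blood count depended on the fit: 3 were higher and 9 lower without LLC tumor library 1, 3 and 3 with DESeq2, and 6 and 6 with limma-voom. Calls over all genes rose as well, from 2917 to 5064 without LLC tumor library 1, 3390 with DESeq2 and 5884 with limma-voom. The endosomal J-domain gene Dnajc13 was higher in LLC blood (0.92 ± 0.11, edgeR adjusted p = 0.000612) in all 17 alternative settings as well. Dnajb14, a J-domain gene of the endoplasmic reticulum, was higher in LLC blood than in healthy blood (0.76 ± 0.12, edgeR adjusted p = 0.00262) and fell from LLC blood to tumor (-1.15 ± 0.13, edgeR adjusted p = 4.52e-05). Of 4 further heat shock factor genes and regulators 2 were tested. Hsbp1, which binds HSF1, was lower in LLC blood (-0.34 ± 0.08, edgeR adjusted p = 0.0152), a call lost in 3 of 17 other settings. In tumor against LLC blood it gave 0.23 ± 0.08 (edgeR adjusted p = 0.032), but this call was lost in 8 of 17 other settings, among them every fit without 1 LLC blood library, and the value was 0.03 with library totals alone (edgeR adjusted p = 0.724). Hsf2 was lower in tumor than in healthy blood (-0.41 ± 0.12, edgeR adjusted p = 0.0133).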

How the data were processed

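Estimated counts per gene, not normalised and in part not whole numbers, were deposited for 9 RNA-seq libraries with a table of CPM values for 10693 genes; all CPM values of the authors (100.0%) gave whole reads within 0.02, which were used in an alternative fit. RNA was extracted with TRIzol and libraries were made with a TruSeq kit and run on a HiScanSQ, per the labels' protocols. The submitters' processing notes name Trim Galore 0.6.7, cutadapt 3.4, STAR 2.6.1d, Salmon 1.9.0, edgeR and mm10, with no role or order. In column heads, BM was read as blood monocyte.

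Counts were rounded, filtered with filterByExpr, scaled with TMM (factors 0.798 to 1.07, lowest in LLC tumor library 1) and fitted over all 9 libraries by group with edgeR 4.0.16 (glmQLFit, glmQLFTest) in R 4.3.3. P-values were adjusted over 12337 genes, and called means an adjusted p under 0.05. Alternatives used DESeq2 1.42.0 and limma 3.58.1, and are given in the closing section. Levels are CPM of the library total, and ± is SE for fits. The scripts were tested on simulated data. The 10 genes, the lists and the markers were chosen with earlier results of these data known. From each list at most 3 genes were eligible to be named per comparison, those with the largest called change and a mean of at least 20 CPM. Single markers such as Col1a1 and Pf4 were picked after their values were seen. Upstream sequences come from RefSeq (GRCm38.p6). The alternative settings of the Hspa1a and Hspa1b sum and of the lists were added after the data were seen. A few single genes of the lists are not reported here.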

Additional observations from a re-analysis of the deposited data

How the results depend on the processing

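For the 10 genes and the Hspa1a and Hspa1b sum, 481 values under alternative settings kept their direction and side of the threshold, 42 lost a call, 24 gained one and 2 changed sign. The sign changes were Dnaja1 in tumor against healthy blood, -0.0377 with limma-voom and sample quality weights and -0.0773 to 0.3783 as each library was left out (lowest without LLC tumor library 1); neither was called and the cause was not tested. In LLC blood against healthy blood, where 2 of the 10 genes and 2917 of all genes were called, a fit of only the 6 libraries compared called 6 and 4889, and limma-voom with sample quality weights 7 and 5884. Leaving out 1 library gave 1 to 6 of the 10 genes, and 1494 (without LLC blood library 2) to 5064 (without LLC tumor library 1) of all genes. The other comparisons kept both counts within 1.5 times. Whole reads recovered from the deposited CPM of 10520 genes gave 2584, 6792 and 7236 calls for LLC blood against healthy blood, tumor against LLC blood and tumor against healthy blood.

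The labels do not say whether the replicate numbers pair the samples. Deviations of same-numbered libraries correlated at 0.297, 0.181 and 0.073 between the blood groups, where the other pairs gave -0.308 to 0.165. Same-numbered libraries gave 0.0761, 0.0499 and 0.0918 between healthy blood and tumor, and -0.078, 0.120 and -0.137 between LLC blood and tumor. Not every library correlated best with its own number. Whether same-numbered libraries were processed together was not tested. With the replicate number as a block, 4 of the 10 genes were called lower in LLC blood (Hspa1a and Hspa1b joined, at edgeR adjusted p = 0.0275 and 0.0177) and 2788 of all genes, while 9 and 5 of the 10 were called in the tumor comparisons.

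Scaling by library totals alone shifted the median of all genes to -0.23 in tumor against LLC blood and -0.17 against healthy blood. The share of calls that were higher then fell from 48.3% to 36.3% and from 50.4% to 40.6%; upper-quartile factors gave 46.3% in place of 59.4% in the blood comparison. The tumor against LLC blood calls of Hsph1, Dnajb1, Hsp90aa1, Dnaja1 and Hsp90ab1 held in all 17 settings run. With 3 libraries a group, the HSP70 pair is limited by spread between libraries and not by read depth.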
